A study of Homo sapiens with 12 samples.

Results

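The comparison set lenvatinib-resistant Hep3B cells against parental Hep3B cells, over all transcripts that the deposited Hep3B table ties to a gene. That was 8717 of 8718 entries, 7497 coding and 1220 non-coding, in 6 of the 12 libraries of the series. Entries were taken because they carried a gene name, whatever their values. Hep3B is an established human hepatocellular carcinoma line, and lenvatinib is an oral inhibitor of receptor tyrosine kinases used against this tumour. Both groups were Hep3B cells in DMEM with 10% FBS, 3 libraries a group, one group labelled parental and the other lenvatinib-resistant. The labels give DMSO or lenvatinib as the treatment without tying either to a library, so whether the drug was on the cells at harvest is not known here. They name neither the number of resistant clones nor separate cultures, so p-values measure the spread between these libraries, which may be technical.

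The liver cell's transcriptome is dominated by a few secreted proteins, and beneath them lie the genes that set cell shape, adhesion, vesicle traffic, glycan coats and basic metabolism. Lenvatinib acts on kinases whose signals pass through the MAPK and PI3K pathways to immediate-early genes and to growth metabolism.

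Levels are scaled reads, meaning whole reads recovered from the deposited values and divided by the authors' factor for that library. Each entry is 1 RefSeq transcript, so an entry may miss other transcripts of its gene. The Huh7 gene level was set against the Hep3B entry level over genes in both tables of the series. Its median log2 ratio was 0.14 for 1927 genes with 1 RefSeq transcript and 2.61 for 709 genes with 5 or more. Huh7 is another cell line with its own scaling, so the ratios do not measure only the share of a gene that an entry holds. Recovered reads per library ran from 6363935 to 7475184 in parental and from 6184929 to 6884468 in resistant cells. Pearson correlations of log2 levels over 4788 well-measured entries, those with a mean of at least 100 scaled reads, ran from 0.992 to 0.994 within groups and from 0.904 to 0.909 between them. The first principal component, 69.8% of the variance, separated the groups, and on it no library stood apart from its group. Library 2 was the least like the others in both groups. Pairs with it correlated at 0.992 to 0.993, beside 0.994 for libraries 1 and 3. On the second component, 8.96% of the variance, library 2 lay highest in each group, at 27.9 in parental and 10.4 in resistant. Differences were tested with limma on log2(scaled reads + 1), two-sided, and p-values were adjusted over the whole table by Benjamini-Hochberg. A value such as -0.89 ± 0.03 is a log2 fold change, resistant against parental, with its SE. "Rose" and "fell" mean an adjusted p under 0.05, and the log2 scale understates the change of transcripts with few reads.

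Cells labelled Hep3B carried liver transcripts in both groups. Albumin (ALB) was read at 213919.8, 198639 and 212207 in the parental and 114995, 109445 and 113761 in the resistant libraries. The transferrin gene TF was read at 21197, 20452 and 21327 and then 12414, 12479.7 and 12958, and the liver homeobox factor ONECUT1, at 759.6, 933 and 671 and 798, 810.4 and 764, overlapped between groups and did not pass (0.02 ± 0.10, adjusted p = 0.894). Of 18 hepatocyte genes listed, 9 had an entry, and 6 fell, 1 rose and 2 did not pass. Over all entries 21.9% fell and 27.6% rose. Of the 8 well-measured hepatocyte genes 62.5% fell, beside 32.1% of all well-measured entries. In the class of 10000 scaled reads or more, which holds ALB and TF, 62.7% of all entries fell. The median log2 fold change of the 9 was -0.73, and it lay between -0.89 and -0.45 under the other scalings. The prealbumin gene TTR (-0.78 ± 0.07), the lipoprotein gene APOA2 (-0.79 ± 0.04) and the forkhead factor FOXA1 (-0.29 ± 0.06) were among those that fell, and the fibrinogen chain FGA rose (0.74 ± 0.14). FGG, the fibrinogen gamma chain, fell from few reads, 7.37, 10.97 and 13.9 against 1.88, 2.04 and 2.09 (-1.93 ± 0.55). FOXA1 lost its call with limma without trend and robust. PROX1, a regulator of liver and lymphatic development, did not pass (-0.30 ± 0.16, adjusted p = 0.123).

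Few markers of endothelial, blood or fibroblast cells had an entry. The labels name only Hep3B cells, and bulk libraries cannot show how many of the cells held a transcript. Summed over the list, 3 endothelial markers with an entry ran from 42.8 to 60.4 scaled reads in parental and from 82.6 to 87.6 in resistant libraries. ESAM, a junction protein of endothelium, rose (1.06 ± 0.23), the scavenger receptor gene STAB2 fell (-1.97 ± 0.53) and PECAM1 did not pass (1.03 ± 0.61, adjusted p = 0.17); these 3 and LAPTM5 were named after their values were seen. Summed macrophage and blood cell markers, 2 with an entry, ran from 437.5 to 520.1 and then from 107.9 to 121.3. Nearly all of this was lysozyme (LYZ, -2.22 ± 0.12), which fell, while the lysosomal membrane protein gene LAPTM5 rose from 3.68, 2.19 and 0 to 3.76, 18.3 and 14.6 (2.20 ± 0.70, adjusted p = 0.0133), a call lost under 4 alternatives, without parental library 3 and without resistant library 2 or 3 among them. The 4 fibroblast and stellate markers summed to 8544–9186 in parental and 7220–7512 in resistant libraries, most of it vimentin (VIM, -0.23 ± 0.05). Among them COL1A2, the alpha-2 chain of type I collagen, rose (2.03 ± 0.16), while the matrix proteoglycan gene LUM (-2.38 ± 0.14) and the growth factor receptor gene PDGFRB (-2.10 ± 0.17) fell. The 8 bile duct markers summed to 31548–32135 and then 34001–35147, with 3 higher and 2 lower. EPCAM, a surface protein of progenitor and duct cells, did not pass (0.09 ± 0.04, adjusted p = 0.0827), the keratin gene KRT19 fell (-0.69 ± 0.04) and SOX9, a duct transcription factor, fell (-0.33 ± 0.05). No marker with an entry was at 0 in all libraries, but the lowest mean of any entry, 4.86 scaled reads, fixed this in advance. Whether these markers have a part in other results was not tested.

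Close to as many entries passed the test as did not, mostly with small steps. Of 8717 entries 2405 rose, 27.6%, and 1912 fell, 21.9%. The 3 resistant libraries lay wholly above or wholly below the 3 parental ones for 4912 entries, 56.3%. Among the 4788 well-measured entries 1545 rose, 32.3%, and 1536 fell, 32.1%. Changes of 2-fold or more that passed the test were fewer, 293 higher and 161 lower among the well-measured. There the median SE of a log2 fold change was 0.0821, and the median difference either way was 1.24-fold. Between replicates the median coefficient of variation was 6.12% in parental and 5.79% in resistant libraries, so that small steps could be called. The balance of rises and falls followed the scaling: 55.7% of calls were higher with the authors' factors, 49.6% with edgeR's TMM, 48.2% with quantile normalization, 48.6% in the authors' deposited table and 39.2% with median centring, where 1747 entries were higher and 2704 lower. Median centring moved the median of all entries from 0.07 to -0.09, and a log2 fold change under about that difference has no firm sign. Quantile normalization moved single abundant transcripts further, among them EEF1A1 from -0.27 to 0.11 and EEF2 from -0.12 to 0.68.

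**Figure D1:**
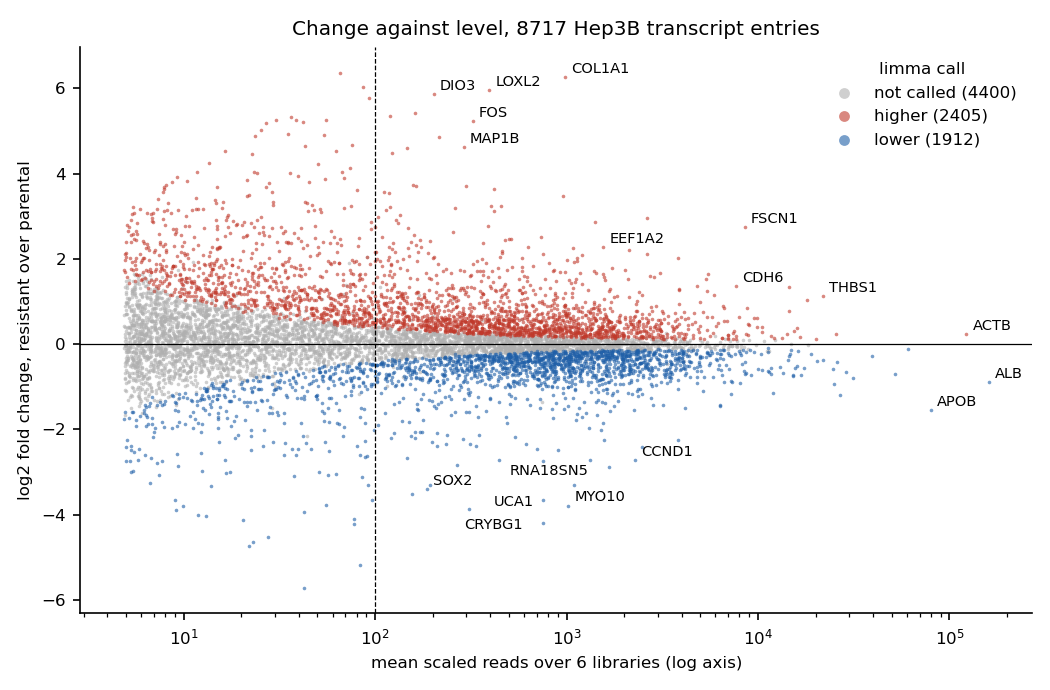
Log2 fold change (resistant over parental) against the mean scaled reads over 6 libraries on a log axis, 1 point per transcript entry, coloured by the limma call. The dashed line marks 100 scaled reads, and the named transcripts reach from COL1A1 at 6.26 to CRYBG1 at -4.19.

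The strongest well-measured rises were of transcripts nearly absent from parental cells, and they came from unrelated families. COL1A1, the main chain of type I collagen, was read at 23.0, 32.9 and 18.8 in the parental libraries and 1741, 2085 and 1984 in the resistant ones (6.26 ± 0.16, adjusted p = 8.96e-14). LOXL2, which crosslinks collagen, was read at 10.1, 16.4 and 8.91 and then at 825, 752 and 752 (5.96 ± 0.19). In both, each resistant library lay far above each parental one. The rule that chose the 15 largest rises and the 15 largest falls took only transcripts whose groups did not overlap. Its limit of 100 scaled reads is a mean over all 6 libraries. The 15 rises met it only through their resistant libraries, and some of the falls only through their parental ones. A low parental level is thus partly built into this ranking of rises. DIO3, the deiodinase that inactivates thyroid hormone, went from 8.29, 2.19 and 9.91 to 416, 384 and 393 (5.86 ± 0.41). EMP2, a tetraspan membrane protein, went from 4.6, 5.48 and 9.91 to 309, 335 and 305 (5.43 ± 0.25). SYT10, of the synaptotagmin family of calcium sensors for vesicle fusion, went from 10.1, 3.29 and 2.97 to 210.4, 268 and 223 (5.34 ± 0.33). DIO3 and SYT10 rested on parental counts so low that the parental libraries differ among themselves by several fold. FOS, the immediate-early partner of JUN, went from 11.97, 16.4 and 19.8 to 624, 638 and 633 (5.24 ± 0.17).

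Among the other largest rises were proteins of nerve and muscle cells as well as a kinase of blood cells. MAP1B, a microtubule-associated protein of growing axons, rose from 17.5, 25.2 and 22.8 to 514, 658 and 502 (4.62 ± 0.17). ELFN1, a synaptic adhesion protein (3.70 ± 0.19), NKAIN1, which binds the sodium pump (3.73 ± 0.17), and the semaphorin SEMA3G (3.63 ± 0.13) rose as well. ACTA1, the actin of skeletal muscle, rose from 8.29, 15.3 and 6.93 to 234, 235 and 238 (4.48 ± 0.25); it is nearly identical in coding sequence to other muscle actins, so its reads are uncertain. COL4A4, a basement membrane collagen chain, rose by 4.59 ± 0.27. PIK3CD, the PI3K catalytic subunit best known from leukocytes, rose from 43.3, 40.6 and 41.6 to 578, 596 and 499 (3.70 ± 0.13). PTGER3, a prostaglandin E2 receptor, rose by 4.86 ± 0.19, and the glycosyltransferase UGT3A1 by 3.56 ± 0.22. The entry of PTGER3 is 1 of 10 RefSeq transcripts and that of PIK3CD 1 of 7, so the whole genes may differ from them.

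The largest falls left low but measurable levels. CRYBG1, whose protein carries crystallin domains, fell from 1429, 1412 and 1465 to 80.8, 91.6 and 62.8 (-4.19 ± 0.12, adjusted p = 2.47e-16). INHBB, the beta B subunit of activin and inhibin, fell from 572, 536 and 628 to 40.4, 32.6 and 42.9 (-3.88 ± 0.14). MYO10, the myosin that travels to the tips of filopodia, fell from 1879, 2028 and 1805 to 154, 135 and 122 (-3.79 ± 0.09). The parental levels of these 3 agreed closely between libraries, and no resistant library came near them. SLC6A14, an amino acid transporter, fell from 2138, 1648 and 2156 to 283, 169 and 164 (-3.30 ± 0.27), with resistant library 1 above the other two. SOX2, a stem cell factor, fell from 307, 338 and 374 to 27.2, 21.4 and 51.2 (-3.40 ± 0.26), with resistant library 3 the highest of its group.

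Several secreted regulators were among these falls. TNFRSF11B, the decoy receptor osteoprotegerin, fell by 3.30 on the log2 scale. The neutrophil chemokine CXCL5 (-2.73 ± 0.07), the complement regulator C4BPA (-2.71 ± 0.11) and the microfibril protein fibrillin-1 (FBN1, -2.46 ± 0.09) fell too. CCND1, cyclin D1, fell from 3898, 4203 and 3713 to 623, 627 and 536 (-2.73 ± 0.07). Inside the cell, the scaffold gene SH3RF3 (-3.52 ± 0.20), RASSF9 of the Ras association family (-2.67 ± 0.18) and GLCCI1, named for its induction by glucocorticoids (-2.49 ± 0.07), were among the 15, as was SEMA3D (-2.84 ± 0.13).

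**Figure D2:**
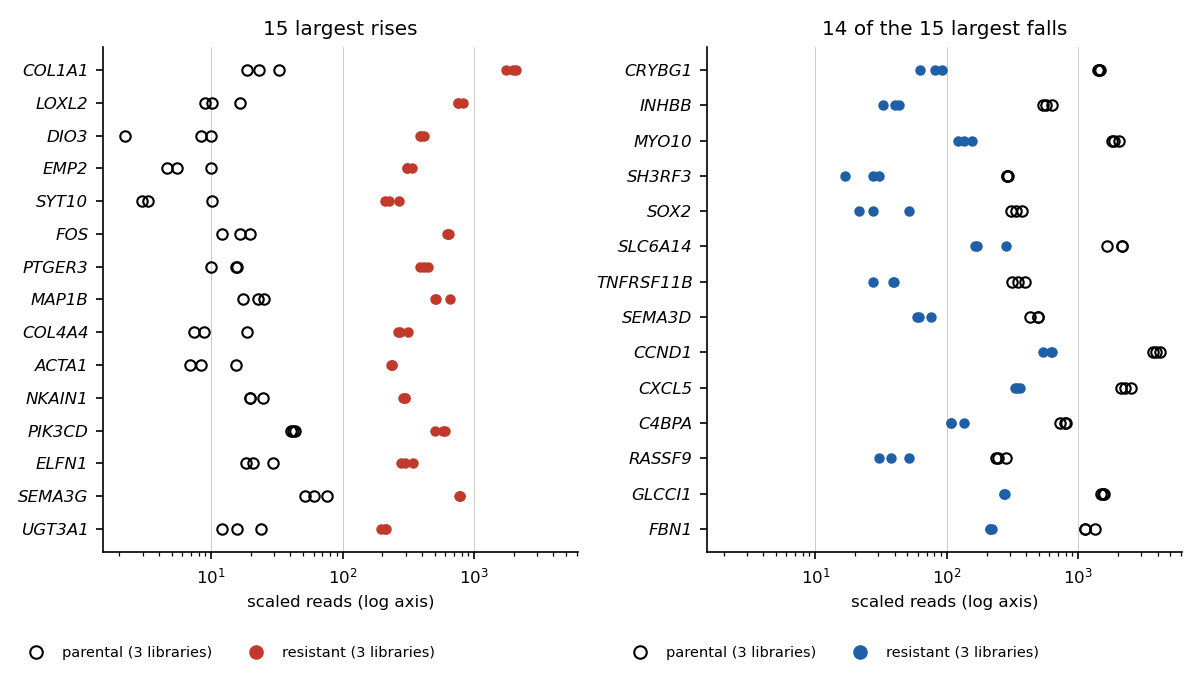
Scaled reads (log axis) in each of 3 parental (open) and 3 resistant (filled) libraries for the 15 largest rises and 14 of the 15 largest falls among well-measured coding entries. COL1A1 lies at 18.8 to 32.9 in parental and 1741 to 2085 in resistant libraries, and CRYBG1 at 1412 to 1465 and 62.8 to 91.6.

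Promoter sequence around the start sites of these genes was read from RefSeq (GRCh38.p14, 250 bases before to 50 after the start), which held a promoter for 6609 of the entries' genes. The windows of EMP2, THBS1 and MAP1B, which rose, and of CRYBG1, the largest fall, are shown because they hold a match to a motif of EGR1, an immediate-early factor, or to a TATA box. Capitals mark the matches to GCGNGGGCG (EGR motif) or TATAAA on either strand.
EMP2 (chr16:10580549-10580848, minus strand): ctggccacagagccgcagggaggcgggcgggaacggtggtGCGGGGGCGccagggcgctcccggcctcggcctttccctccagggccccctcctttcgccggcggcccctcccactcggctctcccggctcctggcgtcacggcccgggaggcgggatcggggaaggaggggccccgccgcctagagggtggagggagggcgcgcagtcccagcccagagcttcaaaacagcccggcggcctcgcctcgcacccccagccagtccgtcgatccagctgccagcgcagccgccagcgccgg
THBS1 (chr15:39580829-39581128, plus strand): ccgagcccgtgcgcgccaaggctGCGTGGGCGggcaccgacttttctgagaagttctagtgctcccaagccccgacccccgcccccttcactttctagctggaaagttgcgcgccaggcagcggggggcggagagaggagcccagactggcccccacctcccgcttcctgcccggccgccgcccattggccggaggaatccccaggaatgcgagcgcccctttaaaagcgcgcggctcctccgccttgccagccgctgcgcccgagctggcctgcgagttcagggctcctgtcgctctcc
MAP1B (chr5:72107225-72107524, plus strand): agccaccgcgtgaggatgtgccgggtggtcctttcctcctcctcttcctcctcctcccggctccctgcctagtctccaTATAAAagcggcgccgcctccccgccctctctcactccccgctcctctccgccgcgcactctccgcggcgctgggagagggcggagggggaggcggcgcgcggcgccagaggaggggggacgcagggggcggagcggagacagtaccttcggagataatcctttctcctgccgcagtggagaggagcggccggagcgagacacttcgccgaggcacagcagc
CRYBG1 (chr6:106360467-106360766, plus strand): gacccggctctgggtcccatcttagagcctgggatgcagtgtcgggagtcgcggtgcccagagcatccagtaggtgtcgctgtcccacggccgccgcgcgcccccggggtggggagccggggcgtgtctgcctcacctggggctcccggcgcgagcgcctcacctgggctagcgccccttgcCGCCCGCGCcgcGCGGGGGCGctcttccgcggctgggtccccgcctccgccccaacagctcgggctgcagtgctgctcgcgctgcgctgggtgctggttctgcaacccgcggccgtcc
EMP2 and THBS1 hold 1 EGR match each, CRYBG1 holds 2, and MAP1B holds a TATAAA. EGR1 itself, looked up after its values were known, rose from 637, 524 and 634 to 4291, 5059.9 and 4579.8 (2.96 ± 0.08).

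Letters of this kind are common. The EGR motif was in 23.9% of 218 promoters of well-measured entries that rose by 2-fold or more, in 16.5% of 115 that fell as much, in 17.4% of 3814 well-measured promoters and in 15.9% of all 6609. TATAAA was in 11.9%, 6.09%, 5.45% and 6.17% of the same sets. Of the 15 largest rises 12 had a promoter, and 4 of them held TATAAA. They belong to DIO3, FOS, MAP1B and the muscle actin. Of the 15 largest falls 12 had one, and 0 held it. The EGR motif was in 2 of those 12 rises and 3 of those 12 falls, the opposite order to the larger sets. The cyclic AMP element TGACGTCA was in 5.96%, 1.74%, 3.72% and 3.24% of the 4 sets, and the AP-1 site TGANTCA in 5.05%, 4.35%, 3.78% and 4.16%. Shares of the E-box CACGTG were 6.88%, 11.3%, 10.8% and 10.5%, and of GGAATG, the TEAD motif, 11%, 10.4%, 11.1% and 11.2%. The CArG box was in 1.83%, 0.87%, 0.839% and 0.968%, and CAAAGTCCA, an HNF4 motif, in 0.917%, 0%, 0.288% and 0.333%. Motifs were searched on both strands, matches of different motifs may overlap, and a match is not evidence of binding. No test was made of these shares.

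Among the non-coding entries, 225 of 1220 rose, 18.4%, and 138 fell, 11.3%, beside 27.6% and 21.9% of all entries. UCA1, a long non-coding RNA first described in bladder cancer, had the largest fall of those with a mean of at least 50, from 1514, 1336 and 1359 to 144, 101 and 93.1 (-3.65 ± 0.14, adjusted p = 4.38e-11). LINC02381 fell from 397, 371 and 412 to 68.5, 64.1 and 102 (-2.34 ± 0.15). HRAT92 rose from 29.5, 21.9 and 28.7 to 135, 113 and 158 (2.30 ± 0.20), followed by LOC729683 (2.05 ± 0.20), LOC284454 (1.88 ± 0.17), a non-coding transcript of PRSS23 (1.71 ± 0.25) and CASTOR3 (1.64 ± 0.23). The pseudogene transcripts MGC70870 (-1.23 ± 0.12) and AHCTF1P1 (-1.16 ± 0.10) fell. In these the groups did not overlap, as for 56.3% of all entries, and their choice by large called changes favours this.

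Of 3 ribosomal RNA entries 1 passed. The 18S ribosomal RNA entry, RNA18SN5, fell from 2761, 3077 and 2986 to 303, 393 and 529 (-2.88 ± 0.22, adjusted p = 0.000336). The 28S entry RNA28SN5, at 4171, 3432 and 3909 and 3919.7, 2043 and 2626, overlapped between groups (-0.47 ± 0.28, adjusted p = 0.242), and the precursor RNA45SN5 did not pass (-0.26 ± 0.14). These 2 were chosen after their values were seen. Ribosomal RNA left in a library depends on how the RNA was selected, its genes are multicopy, and its part in other results was not tested.

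Of 38 listed long non-coding RNAs and snoRNA host genes, 4 rose and 13 fell. Their median was -0.30, against 0.13 over non-coding entries and 0.07 over all entries. Of non-coding entries 18.4% rose and 11.3% fell. Of the 18 well-measured in the list 16.7% rose and 55.6% fell, beside 32.3% and 32.1% of all well-measured entries. SNHG1, host of small nucleolar RNAs, fell from 1268, 933 and 1153 to 591, 516 and 586 (-0.98 ± 0.10), and CCAT1 fell by 0.94 ± 0.14. MALAT1, an abundant nuclear RNA, was read at 11531, 11573 and 8495 and then at 6609, 4507 and 5597 (-0.92 ± 0.21, adjusted p = 0.0238). Its call was lost without parental library 1 or 2 or resistant library 2 or 3.

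The largest losses in reads were of liver secretory and lipid genes. Summed over entries with a higher mean in resistant cells, called or not, the gain was 774188 scaled reads. Entries with a lower mean dropped by 1214634. Scaled totals ran from 6882277 to 6978542 in parental and from 6465035 to 6533121 in resistant libraries. The excess of loss over gain is set by the authors' factors, since equal totals would make gain and loss equal. The 8 largest losses among called entries made up 22.7% of all loss, and the 8 largest gains 12.1% of all gain. Such sums weigh long transcripts more than short ones. ALB fell by 0.89 on the log2 scale, from 3.01% to 1.74% of the scaled reads. APOB, the structural protein of very-low-density lipoprotein, went from 109799.8, 134441 and 114233 to 37820.3, 47055 and 37522 (-1.55 ± 0.13), or 1.72% to 0.628%. FTL, the ferritin light chain, fell by 0.70 ± 0.04, a change that quantile normalization, which gives equal ranks equal values, removed. The lipid enzymes FASN (-1.20 ± 0.06) and SCD (-0.93 ± 0.04), APOA2 and the complement protein C3 (-0.59 ± 0.04) were also among them.

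The 8 largest gains in reads were of ACTB, THBS1, FSCN1, SOX4, RHOB, TMSB10, CDH6 and FLRT2. FSCN1, fascin, which bundles actin in filopodia, was read at 2026, 2396 and 2262 and then at 14358, 15564 and 14501 (2.73 ± 0.06, adjusted p = 2.16e-17). THBS1, the matrix glycoprotein thrombospondin-1, went from 13624, 14624 and 13079 to 29832, 30732 and 29159 (1.12 ± 0.04). RHOB, an endosomal GTPase, went from 7959, 8440.3 and 8187 to 20753, 20728 and 20666 (1.34 ± 0.04). The resistant libraries were tightly grouped for both. SOX4, a progenitor transcription factor (1.04 ± 0.05), the actin-sequestering TMSB10 (0.77 ± 0.11), the cadherin CDH6 (1.36 ± 0.05) and FLRT2, a receptor of cell guidance (1.65 ± 0.06), rose by 0.77 or more. ACTB, cytoplasmic beta-actin, gained the most reads but by a small step (0.24 ± 0.04), and lost its call with median centring. FLRT2 was measured on 1 of 8 RefSeq transcripts.

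Direction went with abundance. Of the 59 entries with a mean of 10000 scaled reads or more, 37 fell and 16 rose, 62.7% and 27.1%. Between 1000 and 10000, 680 of 1592 fell, 42.7%, and 473 rose, 29.7%. Between 100 and 1000, 819 of 3137 fell, 26.1%, and 1056 rose, 33.7%. Between 10 and 100, 311 of 2723 fell, 11.4%, and 700 rose, 25.7%. Under 10, 65 of 1206 fell, 5.39%, and 160 rose, 13.3%. Median log2 fold changes of the 5 classes went from 0.23 in the lowest through 0.20, 0.05 and -0.08 to -0.24 in the most abundant. The tilt was also seen with edgeR's TMM, from 0.19 to -0.29, and with median centring, from 0.07 to -0.40. With quantile normalization, which forces one distribution on all libraries, the medians were -0.11 in the lowest class and -0.09 in the most abundant, and the tilt was not seen. The 10 most abundant entries held 10.8% to 11.1% of reads in parental and 7.99% to 8.24% in resistant libraries.

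**Figure D3:**
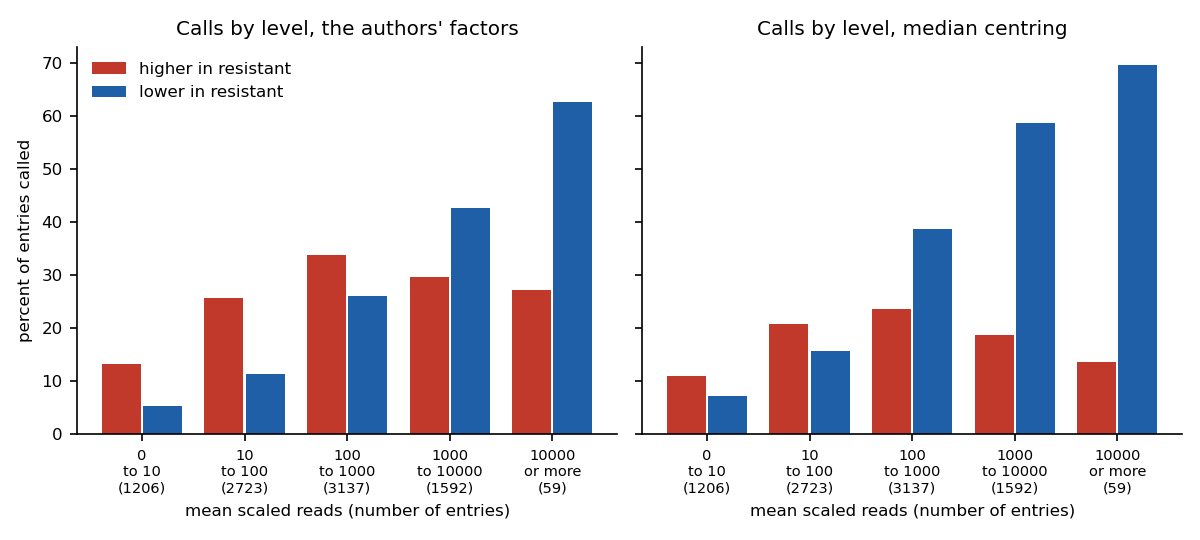
Percent of entries called higher (red) or lower (blue) in resistant cells, in 5 classes of mean scaled reads, with the authors' factors and with median centring; the number of entries is in parentheses. Falls make up 62.7% of the most abundant class and 11.4% of that from 10 to 100 with the authors' factors, and 69.5% and 15.7% with median centring.

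The groups of genes that follow are described by counts and medians, set beside 27.6% higher, 21.9% lower and a median of 0.07 over all entries. Among well-measured entries, which many of the lists mostly hold, the shares were 32.3% and 32.1%. Actin and contractility genes rose more often than they fell. Of 34 measured, 17 rose, 7 fell and 10 did not pass, with a median of 0.36 that stayed positive, 0.20 to 0.37, under the other scalings. Besides FSCN1 and TMSB10, the formin FMNL1, which elongates actin filaments, went from 64.5, 58.1 and 26.8 to 188, 173 and 194 (1.97 ± 0.28). CALD1, caldesmon, an inhibitor of actomyosin, fell from 92.1, 105 and 98.1 to 43.2, 44.8 and 36.6 (-1.23 ± 0.19). Its entry is 1 of 34 RefSeq transcripts.

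Tubulins and kinesins had 10 of 26 higher, 5 lower and 11 not passing, with a median of 0.08 that turned to -0.08 with median centring. Of the changes of 2-fold or more that passed, 7 were rises and 1 a fall, that of the platelet tubulin TUBB1 (-1.18 ± 0.23, named after its values were seen). Beside MAP1B, the kinesin-2 motor KIF3C went from 204, 213 and 227 to 1040.5, 1014 and 1068 (2.27 ± 0.08), and TUBB2B, a beta-tubulin of the developing brain, from 487, 446 and 437 to 1676, 1644 and 1884 (1.92 ± 0.07). TUBB2B has a near-identical copy, TUBB2A, and its reads are uncertain. KIF12, a kinesin of kidney and liver, rose (1.31 ± 0.13), while the abundant TUBA1B fell slightly (-0.37 ± 0.04). The count of falls was 3 without parental library 1 or resistant library 1, and 8 with the replicate block.

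Cadherins and protocadherins rose in 13 of 26, fell in 4 and did not pass in 9, with a median of 0.63 that ran from 0.46 to 0.59 under the other scalings. The authors' deposited table called 8 of them higher. DCHS1, an atypical cadherin of planar cell polarity, went from 66.3, 75.7 and 86.2 to 723, 777 and 688 (3.25 ± 0.12, adjusted p = 5.71e-15). CELSR3, another polarity cadherin, went from 308, 342 and 374 to 1303, 1379.5 and 1174 (1.91 ± 0.08), and CDH6 from 4061, 4709.8 and 4232 to 11023, 11672 and 10566. Resistant libraries were more than 2-fold above parental ones for these 3. PCDH17 fell from 179, 176 and 197 to 96.7, 84.5 and 100.4 (-0.97 ± 0.14). Of the 13 that rose 7 are clustered beta protocadherins, PCDHB2, PCDHB3, PCDHB9, PCDHB10, PCDHB13, PCDHB14 and PCDHB16, similar in sequence, so that reads may be shared among them; these were named after their values were seen. The other 4 of 11 measured beta protocadherins did not pass. The calls of PCDHB3, PCDHB10, PCDHB13 and PCDHB14 were lost under 7, 3, 6 and 10 alternatives, which for one or more of them include each fit without parental library 1 or 3 or without resistant library 1, 2 or 3.

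Tight junction and tetraspanin genes had 11 of 25 higher and 4 lower, with 8 lower under median centring, where the median went from 0.10 to -0.06. Outside EMP2, the claudin CLDN23 rose from 152, 183 and 177 to 399, 414 and 422 (1.27 ± 0.11) and TSPAN15, a tetraspanin partner of the protease ADAM10, from 259.6, 242 and 262 to 548, 565 and 707 (1.24 ± 0.10). TSPAN13 fell from 4183, 3862 and 4082 to 2269, 1956 and 2317 (-0.89 ± 0.06). CLDN1, the most abundant claudin entry, rose by 0.25 ± 0.04 and lost its call with median centring.

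Axon guidance genes moved in both directions with large steps: 9 of 27 rose, 10 fell and 8 did not pass, with a median of -0.07. SEMA3G went from 51.6, 75.7 and 60.4 to 766, 783 and 778, and the netrin NTN3 from 39.6, 50.4 and 29.7 to 108, 155 and 109.8 (1.62 ± 0.21). SEMA3D went the other way, from 491, 497 and 427 to 75.1, 59.0 and 61.7, as did the semaphorin receptor PLXNA2, from 419.8, 478 and 454 to 154, 151 and 139 (-1.60 ± 0.10). PLXNB2, the plexin entry with the most reads, did not pass (-0.11 ± 0.05, adjusted p = 0.0851). SEMA3D was measured on 1 of 5 RefSeq transcripts.

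Genes of synaptic vesicles and regulated exocytosis were few but moved one way. Of 56 listed 13 had an entry, of which 9 rose, 0 fell and 4 did not pass, and the median of 0.92 ran from 0.55 to 0.96 under the other scalings. DOC2B, a calcium sensor of insulin and transmitter release, rose from 9.21, 16.4 and 4.95 to 68.5, 119 and 89.9 (3.16 ± 0.34). UNC13D, the priming factor of cytotoxic granules, rose from 45.1, 31.8 and 35.7 to 78.9, 82.5 and 78.4 (1.08 ± 0.20). VAMP2, the vesicle SNARE synaptobrevin, went from 201, 163 and 158 to 359.7, 351 and 346 (1.02 ± 0.11), and UNC13B from 1028, 1047 and 909 to 1421, 1441 and 1369 (0.51 ± 0.07). The resistant libraries lay above the parental ones in each, and the groups did not overlap for 56.3% of all entries. Without an entry, the other 43 were not measured here, and low transcripts in general leaned upward in this table.

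Traffic from the endoplasmic reticulum to the Golgi leaned the other way. Falls were called for 11 of 36 genes and rises for 5, with a median of -0.09, and 18 fell and 2 rose with median centring. Of the 24 well-measured 45.8% fell, close to the 42.7% of all entries between 1000 and 10000 scaled reads. Rises were 12.5% of the 24, beside 29.7% of that class. SEC24D, a cargo receptor of COPII vesicles, went from 1118, 1261 and 1002 to 514, 592 and 572 (-1.01 ± 0.08). LMAN1, the cargo receptor of clotting factors, went from 3133, 2878 and 2906 to 2074, 1926 and 1929.6 (-0.59 ± 0.05). SEC16B (-0.86 ± 0.14), which marks exit sites, CREB3L2 (-0.59 ± 0.08), a membrane-bound transcription factor of secretory cells, and the cargo carrier TMED2 (-0.22 ± 0.05) fell as well.

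Cell surface proteoglycans and their enzymes had 18 of 39 higher, 9 lower and 12 not passing, with a median of 0.19 (0.03 to 0.15 under the other scalings) and 11 higher in the authors' deposited table. Core proteins moved both ways. GPC4, a glypican, went from 426, 412 and 391 to 1632, 1697 and 1485 (1.97 ± 0.07, adjusted p = 7.45e-15). The syndecans SDC3, from 536, 588 and 600.3 to 1468, 1590.3 and 1577 (1.43 ± 0.07), and SDC4, from 4572, 4731 and 4516 to 8449.8, 8451 and 8757 (0.89 ± 0.04), rose too. All 3 showed resistant libraries well apart from parental ones, and the groups did not overlap for 56.3% of all entries. CHST6, a sulfotransferase of keratan sulfate (1.40 ± 0.21), and GPC2 (1.13 ± 0.18) rose from low levels. Among core proteins named after their values were seen, SDC2 (-0.38 ± 0.05), GPC5 (-0.40 ± 0.08) and BGN (-0.33 ± 0.06) fell, AGRN fell (-0.66 ± 0.22) but not without parental library 1 or 3 or resistant library 3, and GPC1 did not pass (0.07 ± 0.06, adjusted p = 0.387).

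Glycan capping and mucin-type glycosylation genes rose in 12 of 34 and fell in 6, with a median of 0.26 (0.09 to 0.24 under the other scalings). ST6GALNAC2, a sialyltransferase of mucin-type glycans, was nearly absent in parental cells, at 5.52, 9.87 and 3.96, and was read at 120.2, 96.7 and 92.0 in resistant ones (3.87 ± 0.31). B3GNT5, which starts lacto-series glycolipids, went from 654, 578 and 559.7 to 1347, 1386 and 1378 (1.20 ± 0.07), and GALNT10, which starts mucin-type chains, from 1016, 1070.3 and 996 to 1891, 2031 and 1869 (0.91 ± 0.06). GCNT4, a branching enzyme, rose by 0.87 ± 0.13. GALNT1 rose by 0.21 ± 0.04 but not with median centring.

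Lysosomal genes had 13 of 30 higher, 8 lower and 9 not passing, with a median of 0.23 (0.08 to 0.19). CTSH, a cysteine protease, went from 512, 542 and 537 to 1239, 1215 and 1198 (1.20 ± 0.07), and the lysosomal membrane protein LAMP2 from 230.2, 176 and 160.5 to 499.6, 457 and 447 (1.32 ± 0.12). CTSF rose from 44.2, 36.2 and 79.2 to 143, 142 and 168 (1.56 ± 0.23). ARSB, arylsulfatase B, which degrades dermatan and chondroitin sulfate, fell from 559, 575 and 569 to 195, 176 and 199.8 (-1.57 ± 0.09). LAMP1 rose by 0.23 ± 0.04, a call lost with median centring.

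Autophagy genes rose in 11 of 23, fell in 3 and did not pass in 9, with a median of 0.22 (0.07 to 0.17). GABARAPL1, of the ATG8 family that coats autophagosomes, went from 109, 71.3 and 94.1 to 320.2, 319 and 371 (1.89 ± 0.15). BNIP3L, a mitophagy receptor, went from 218, 222 and 229 to 621, 524 and 578 (1.36 ± 0.09), and the initiating kinase ULK1 from 1563, 1529.7 and 1530.5 to 3412, 3479.8 and 3416 (1.16 ± 0.05, adjusted p = 1.21e-13). Each of these 3 was more than 2-fold higher in every resistant library than in any parental one. GABARAP rose (0.56 ± 0.06), and ATG2A, a lipid transfer protein, fell (-0.56 ± 0.06). The count of rises was 6 with median centring, and 7 with DESeq2 or without resistant library 1.

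Nucleotide synthesis leaned down. Falls were called for 14 of 31 genes and rises for 6, with a median of -0.28 that ran from -0.44 to -0.36 under the other scalings. PPAT, which makes the committed step of purine synthesis, fell from 2212, 2090.1 and 2034 to 993, 1009 and 981 (-1.09 ± 0.06, adjusted p = 2.85e-12). ADSS, which turns IMP towards AMP, fell from 1911, 1916 and 1938 to 937, 829 and 1024 (-1.05 ± 0.07). The groups were far apart for both, beside their narrow spread. The entry of GART, a gene of the same pathway (-0.88 ± 0.19), and DPYD, which degrades pyrimidines (-0.82 ± 0.22), fell. That of GART is 1 of 4 RefSeq transcripts, so the whole gene may differ. The other purine enzymes PFAS (-0.56 ± 0.06), ATIC (-0.61 ± 0.05), GMPS (-0.35 ± 0.06) and IMPDH2 (-0.28 ± 0.06), named after their values were seen, fell as well. RRM1, a ribonucleotide reductase subunit, rose slightly (0.13 ± 0.05), a call lost under 9 alternatives, among them without parental library 1 or 3 or resistant library 1 or 2. The count of rises was 3 without resistant library 1.

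Translation and splicing factors had more falls than rises, mostly small. Of 41 translation factors 17 fell, 5 rose and 19 did not pass, with a median of -0.12 (-0.28 to -0.12). Among the 31 well-measured, 51.6% fell, beside 32.1% of all well-measured entries and 42.7% of those between 1000 and 10000 scaled reads. PABPC1, which coats poly(A) tails, went from 19817, 22743 and 19634 to 13342, 15512 and 13292 (-0.56 ± 0.07), and EIF3F from 2531, 2686 and 2585 to 1674, 1709 and 1790.5 (-0.59 ± 0.05). EIF3M fell too (-0.60 ± 0.13). Elongation factor EEF2 fell by 0.12 ± 0.04; the call was lost under 5 alternatives, without parental library 2 and without resistant library 1 among them, and the sign turned with quantile normalization. Against these, EEF1A2, the elongation factor of muscle and neurons, went from 489.8, 576 and 527 to 2611, 2587 and 2507 (2.27 ± 0.07, adjusted p = 3.1e-16).

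Of 47 splicing factors 17 fell, 8 rose and 22 did not pass, with a median of -0.09 (-0.24 to -0.11 under the other scalings). Of the 35 well-measured 45.7% fell, close to the 42.7% of all entries between 1000 and 10000. SF3B2, a U2 snRNP subunit, went from 14207, 14683 and 14663 to 9109, 9014 and 8852 (-0.69 ± 0.04), and PRPF19, of the spliceosome's activating complex, from 4042, 4258 and 4088 to 2306, 2446 and 2488 (-0.78 ± 0.05). CELF1 (-0.99 ± 0.11), measured on 1 of 91 RefSeq transcripts, and SRSF9 (-0.72 ± 0.08) fell. A non-coding transcript of SRSF3, 1 of its 2 RefSeq transcripts, rose (0.75 ± 0.12). In this list 3 of the 47 entries are non-coding transcripts. The count of rises was 4 with median centring.

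Chaperones and redox enzymes had small medians, with more falls than rises. Of 33 cytosolic chaperones and heat shock factors 8 fell and 4 rose, with a median of -0.07 (-0.23 to -0.11 under the other scalings). Of the 16 well-measured 43.8% fell and 12.5% rose, beside 32.1% and 32.3% of all well-measured entries. Between 1000 and 10000 scaled reads 42.7% of all entries fell and 29.7% rose. The small heat shock proteins parted: HSPB8, of chaperone-assisted autophagy, fell from 375, 375 and 438 to 119, 127 and 142 (-1.60 ± 0.11), and HSPB1 rose from 4183, 4646 and 4564 to 6589, 7510.5 and 6878 (0.65 ± 0.05). The co-chaperone BAG2 fell (-0.81 ± 0.07), and HSPA1B rose (0.83 ± 0.19), a gene with a near-identical copy. Of 23 thioredoxin, peroxiredoxin and selenoprotein genes 8 fell and 6 rose, with a median of -0.09. Of the 15 well-measured 40% fell and 33.3% rose. PRDX6, a peroxiredoxin with phospholipase activity, fell from 6705, 6163 and 6856 to 3999.5, 3564 and 4065 (-0.76 ± 0.06), and SEPHS2, which makes the selenium donor, rose from 9099, 8515 and 9439 to 12356, 11179.6 and 12389 (0.41 ± 0.05). ARRDC3, an arrestin-domain protein, fell (-0.80 ± 0.13), and GPX7 rose (0.75 ± 0.09).

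Peroxisome genes fell in 7 of 16 and rose in 3, with a median of -0.16 (-0.32 to -0.21). Catalase (CAT) went from 1943, 2026 and 2052 to 1213, 1182 and 1258 (-0.72 ± 0.06). PEX14 (0.31 ± 0.11, adjusted p = 0.0283) and AGPS (-0.15 ± 0.06, adjusted p = 0.0283) passed narrowly; both calls were lost without parental library 1 or 3, that of PEX14 also without resistant library 2 and that of AGPS without resistant library 3. The count of falls was 4 without parental library 1 or 3.

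Phospholipid and sphingolipid genes had 9 of 34 higher and 8 lower, with a median of 0.00. SPTLC3, a serine palmitoyltransferase subunit, fell from 171, 172 and 119.9 to 13.2, 22.4 and 15.7 (-3.12 ± 0.23, adjusted p = 6.36e-10). SGPL1, the lyase that degrades sphingosine 1-phosphate, rose from 657, 731 and 637 to 1263, 1316 and 1272 (0.93 ± 0.07). ETNK1, ethanolamine kinase, went from 1536, 1359 and 1488 to 773, 694 and 803 (-0.95 ± 0.07), and CHPT1, which makes phosphatidylcholine, from 1054, 938 and 1038 to 535, 538 and 502 (-0.94 ± 0.07). The phosphatidate phosphatase gene LPIN2 fell by 0.33 ± 0.05.

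Hormone and vitamin A metabolism showed single strong members. Rises were called for 9 of 27 genes and falls for 5, with a median of 0.18 (0.01 to 0.12). DHRS3, which turns retinal back to retinol, rose from 474, 451 and 516 to 970.1, 948 and 940.2 (0.99 ± 0.07), and RBP4, the plasma carrier of retinol, fell from 3519, 3489 and 3907 to 1842, 1888 and 1946 (-0.94 ± 0.06). ALDH1A1, which makes retinoic acid, fell by 0.24 ± 0.04, not with quantile normalization. The thyroid hormone receptor THRA rose beside DIO3, from 25.8, 42.8 and 44.6 to 90.2, 70.2 and 76.3 (1.08 ± 0.23). Of 15 nuclear receptors 4 rose, 1 fell and 10 did not pass. NR0B2, the corepressor SHP of bile acid feedback, rose from 574, 523 and 552 to 1110.0, 957 and 1023 (0.90 ± 0.07), NR4A2, an immediate-early orphan receptor, rose by 0.96 ± 0.15, and NR2F6 by 0.36 ± 0.05.

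Insulin and IGF genes rose in 13 of 28 and fell in 3, with a median of 0.35 (0.19 to 0.31). IRS2, the insulin receptor substrate of the liver, went from 2627, 2683 and 2713 to 7192, 7428 and 6109 (1.36 ± 0.06, adjusted p = 1.19e-12). IGFBP1, the binding protein that fasting induces, went from 16.6, 13.2 and 10.9 to 159.6, 138 and 111 (3.24 ± 0.24), and IGFBPL1 from 45.1, 47.1 and 32.7 to 97.7, 123 and 115 (1.42 ± 0.20). The resistant libraries were at least 2-fold above the parental ones in these 3. IGF2R, which carries lysosomal enzymes and clears IGF2, rose by 0.14 ± 0.05; that call was lost under 7 alternatives, without parental library 1 and without resistant library 2 among them, and its sign turned with median centring. Falls numbered 7 with median centring.

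Cyclic nucleotide and phosphatase regulators were divided, 19 of 51 higher, 14 lower and 18 not passing, with a median of -0.01. PPP1R15A (GADD34), which brings protein phosphatase 1 to the initiation factor eIF2, rose from 946, 883 and 981 to 3073, 3088 and 3196 (1.74 ± 0.06, adjusted p = 1.75e-15). PPP1R3G, a glycogen-targeting subunit of the same phosphatase, rose from 32.2, 28.5 and 27.7 to 258, 204 and 223 (2.91 ± 0.17). AKAP6, an anchor of protein kinase A, rose (1.44 ± 0.20). PDE3B, the phosphodiesterase through which insulin lowers cyclic AMP, fell from 1236, 1321 and 1249 to 531, 455 and 480.0 (-1.38 ± 0.07). GNA11 rose by 0.17 ± 0.05, a call lost under 6 alternatives, without resistant library 3 among them.

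Calcium-handling genes, with the S100 and annexin families, had 12 of 32 higher, 7 lower and 13 not passing. The median of 0.12 turned to -0.04 with median centring, where 11 fell. Among the largest changes of this list, S100A11 rose from 141, 138 and 162 to 810.4, 783 and 822 (2.45 ± 0.09). S100A6 rose from 398, 326 and 464 to 1448, 1152 and 1369 (1.75 ± 0.13). S100A10, the partner of annexin A2, rose from 232, 184 and 262 to 495, 529 and 507 (1.19 ± 0.11). The calcium release channel ITPR2 fell, from 1499.8, 1604 and 1470.0 to 614, 715 and 588 (-1.26 ± 0.07). CALR, calreticulin, the abundant calcium store of the reticulum, did not pass (-0.02 ± 0.04, adjusted p = 0.691).

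Proteinase inhibitors rose in 10 of 21 and fell in 6, with a median of 0.49 (0.34 to 0.44). SERPINA3, an acute-phase antichymotrypsin, rose from 78.3, 63.6 and 67.4 to 309, 276 and 342 (2.13 ± 0.14), and TIMP2, an inhibitor of matrix metalloproteinases, from 1103, 1134 and 998 to 3090.5, 3201 and 3090.5 (1.54 ± 0.06, adjusted p = 1.29e-14). TIMP1 rose from low values (1.41 ± 0.25). A2M, the broad plasma inhibitor alpha-2-macroglobulin, fell from 2447, 2411 and 2428 to 645, 551 and 611 (-2.01 ± 0.07). AMBP, the bikunin precursor, fell by 0.14 ± 0.04; the call was lost under 3 alternatives, without parental library 3 among them, and the sign turned with quantile normalization.

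Homeobox and forkhead factors had 9 of 38 higher and 12 lower, with a median of 0.03 that turned negative, -0.13 to -0.03, under the other scalings. ISL1, a factor of motor neuron and islet development, fell from 155, 129 and 132 to 30.1, 52.9 and 33.5 (-1.85 ± 0.21), and IRX3 from 85.6, 80.0 and 81.2 to 29.1, 28.5 and 22.0 (-1.61 ± 0.22). FOXJ1, the factor of motile cilia, rose from 412, 408 and 425 to 1086, 1009.9 and 1011 (1.32 ± 0.07), and SIX2, of kidney progenitors, from 38.7, 37.3 and 53.5 to 95.8, 99.8 and 99.4 (1.19 ± 0.19). FOXK1 rose by 0.18 ± 0.06, a call lost under 9 alternatives, without parental library 1 or 3 or resistant library 1 or 2 among them.

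Chromatin-modifying enzymes changed by small steps, 17 of 58 higher, 14 lower and 27 not passing, with a median of -0.03. KMT2D, an H3K4 methyltransferase of enhancers, fell from 3663, 5092 and 4722 to 2419, 2714 and 2256 (-0.86 ± 0.15, adjusted p = 0.0053). The methyltransferase SMYD2 rose from 1245, 1165 and 1221 to 2262, 2074 and 2206 (0.85 ± 0.06), and HDAC6, the cytoplasmic deacetylase of tubulin, from 532, 448 and 454 to 822, 772 and 788 (0.73 ± 0.08). KDM2A fell (-0.62 ± 0.22), a call lost without parental library 2 or resistant library 1. SMARCC1 rose by 0.13 ± 0.05, a call lost under 9 alternatives, without parental library 1 or 3 or resistant library 1 or 2 among them, and its sign turned with median centring. The 14 falls became 9 without resistant library 1 and 20 with median centring.

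**Figure D4:**
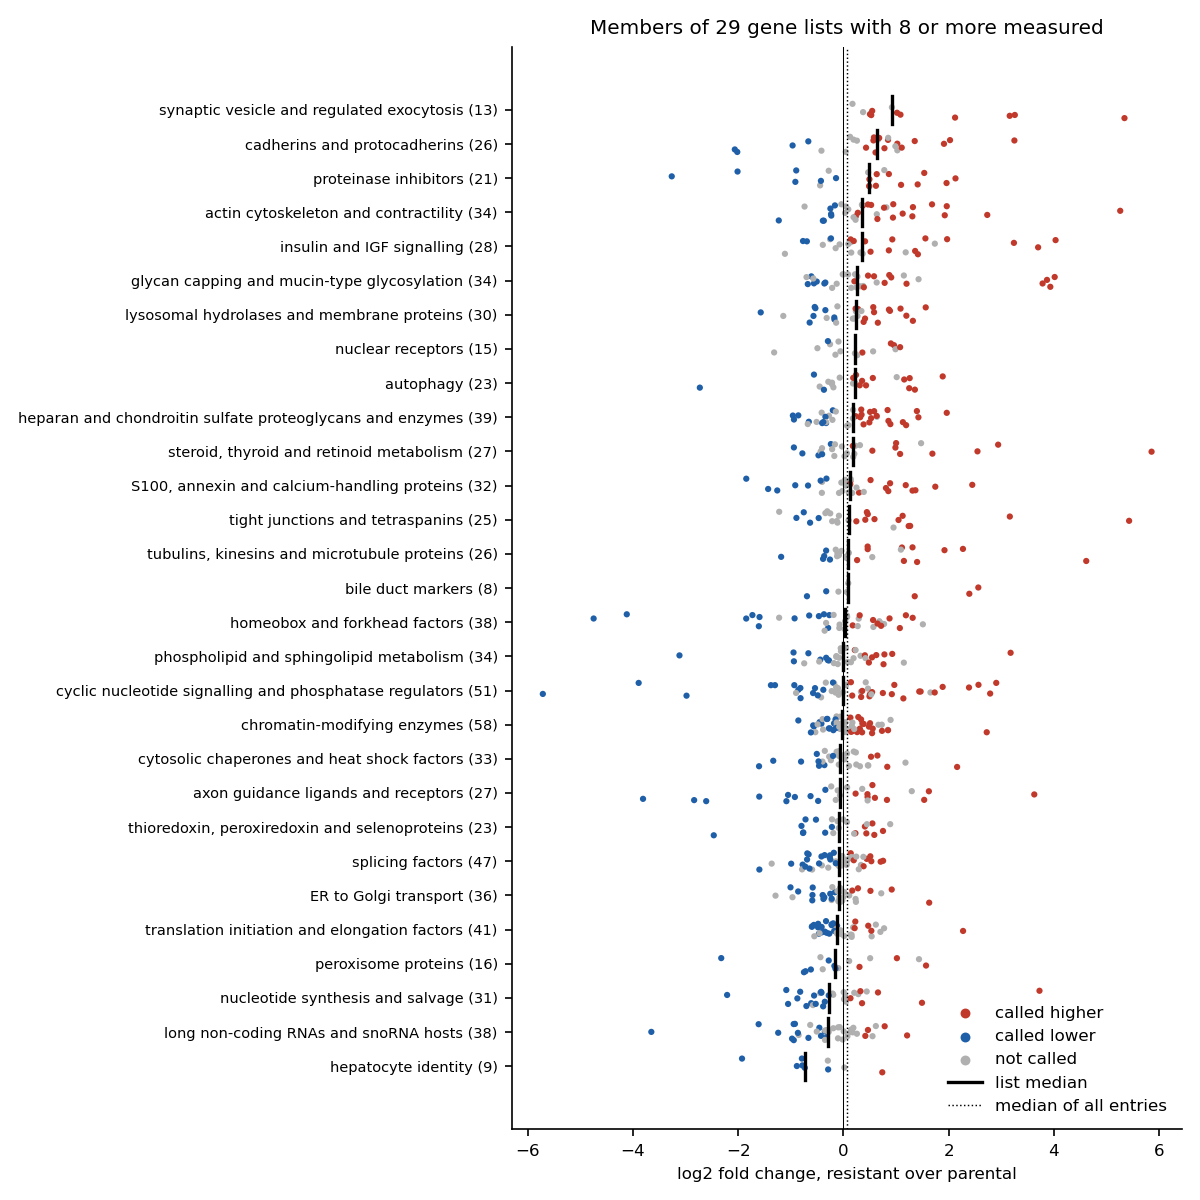
Log2 fold change (resistant over parental) of each measured member of gene lists with 8 or more members measured, 1 point per transcript entry, coloured by the limma call; thick bars are list medians and the dotted line is the median of all entries. Medians run from 0.92 for synaptic vesicle and exocytosis genes to -0.73 for hepatocyte identity genes.

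Within several families one member fell while a relative rose; 5 such pairs were picked after their values were seen and are given as a description. LOX, lysyl oxidase, went from 259.6, 299 and 239.7 to 50.7, 61.1 and 59.6 (-2.20), opposite to LOXL2. ITPR3 went from 6216, 6384 and 6072 to 10767, 12108 and 10906 (0.85), opposite to ITPR2. EEF1A1, the general elongation factor, went from 42709.6, 43672 and 42886 to 35027, 34240.4 and 38146 (-0.27) against the 2.27 of EEF1A2, and these 2 genes are alike enough in coding sequence for reads to be shared. The fall of EEF1A1 was not called with quantile normalization, where its sign turned (0.11, adjusted p = 0.436). SEMA3D and SEMA3G, and SOX2 and SOX4, were the other pairs. In each pair and for both members the resistant libraries lay wholly on one side of the parental ones, as for 56.3% of all entries.

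**Figure D5:**
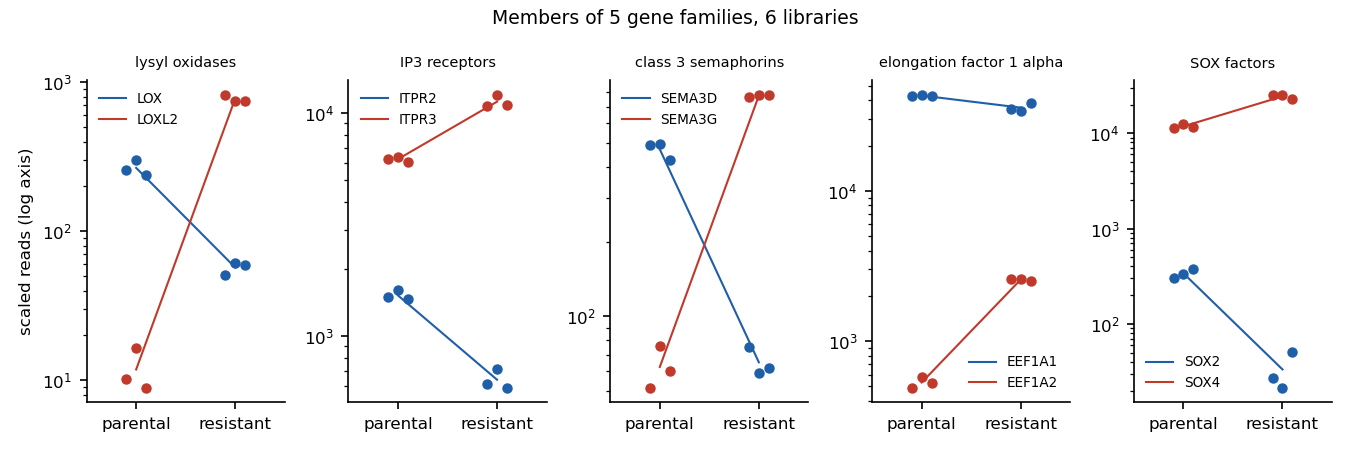
Scaled reads (log axis, own range in each panel) of 2 members of each of 5 gene families in 3 parental and 3 resistant libraries; points are libraries and lines join the group means. Blue members fell and red members rose, LOX to 50.7–61.1 and LOXL2 to 752–825 scaled reads.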

How the data were processed

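RNA of 6 Hep3B libraries was sequenced on standard Illumina libraries from total RNA, per the labels' protocols. The build was GRCh37 per the submitters' processing notes, and no aligner, read counter, strand setting or annotation was given in the sources used here. For Hep3B, the signal values the authors deposited were found from the values to be 2 times the square root of (reads + 0.375)/factor, with 1 factor per library. Whole reads were recovered for 100% of them within 0.05. The table's lowest mean is 4.86 scaled reads, so lower entries are not analysed here. The authors also deposited log2 fold changes and adjusted p-values, used only as an alternative. The deposited Huh7 signal values, reads per gene over a factor, served only to set Hep3B entries beside gene levels. They cover only genes whose adjusted p, as the authors deposited it for Huh7, is at most 0.0499. The entry without a gene name held at most 0.000171% of reads.

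The main test was limma 3.58.1 (R 4.3.3, trend and robust) on log2(scaled reads + 1), for entries that reached 1 scaled read in 3 or more libraries, and it was tested on simulated data. The plan assumed counts or FPKM-like values, and the test for normalized values was used. The 20 alternatives include edgeR 4.0.16 and DESeq2 1.42.0 on the recovered reads. Members and the 33 lists were chosen with earlier results of these data known. Genes were named by rule: the 15 largest rises and falls among called coding entries with a mean of at least 100, the 8 largest gains and losses in reads, 5 non-coding ones each way with a mean of at least 50, up to 4 called members with a mean of at least 50 and the highest member per list, and all measured hepatocyte genes. Others are marked where named. Results of 1 list and some genes that this rule names are not reported here.

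Replicate numbers come from the sample titles. Deviations from group means of same-numbered libraries correlated at 0.118, 0.372 and 0.206 for numbers 1, 2 and 3 over 4788 entries. Differently numbered ones ran from -0.283 to 0.115. The 0.115 was that of parental 1 with resistant 3, so number 1 did not stand out. A fit with the number as a block was run.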

Additional observations from a re-analysis of the deposited data

How the results depend on the processing

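Over the 20 alternatives, 114 of 120 values of the counts over all, well-measured and 2-fold entries stayed within 1.5 times the count reported. The other 6 came from keeping only genes with 1 RefSeq transcript, which tests fewer entries: 1481 higher and 1155 lower in all, 988 and 960 among the well-measured, and 555 and 244 by 2-fold or more. Leaving out 1 library at a time gave 2038 to 2279 higher and 1695 to 1847 lower entries, 1376 to 1473 and 1402 to 1500 among the well-measured, and 820 to 940 and 372 to 415 by 2-fold or more. With the replicate number as a block, 2703 were higher and 2178 lower, and it moved no count over all entries by more than 1.5 times. Most of the 219 named genes were chosen because they passed the test, which favours kept calls. Of their 4309 values, 4183 kept direction and side of the threshold, 105 lost the call, 15 gained it and 6 turned. The signs that turned were those of SMARCC1 (-0.0252), RRM1 (-0.0245) and IGF2R (-0.0206) with median centring, and of EEF2 (0.68), EEF1A1 (0.11) and AMBP (0.0540) with quantile normalization; the cause was not tested. Of 1254 list counts 43 moved by more than 1.5 times. Over all entries, 2405 were called higher and 1912 lower here, and 1815 and 1921 in the authors' deposited table. Both called 3646, all in the same direction. Depth limits entries under 10 scaled reads, where 81.3% did not pass.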
